A study of Mus musculus with 12 samples.

Results

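The 6 leukemias described here are the tumors, of 9 tumors and 12 thymus libraries in all, in which at least 25% of the estimated counts fell on mitochondrial genes. They were therefore chosen by a measured share, which was 69.3%, 66.7%, 48.5%, 66.5%, 41.3% and 31.6% in tumors 1 to 6. Tumor 6, at 31.6%, was the nearest above the threshold, and tumor 7, at 11.1%, had the highest share among the other 3 tumors. All 6 are labelled as T cell acute lymphoblastic leukemia (T-ALL) of the thymus. The mice carry IL-7R alpha under tetracycline-inducible expression, the receptor was induced with doxycycline, and the strain label is F5. The 3 control libraries are thymus of healthy mice with the strain label F5 and the genotype label control. The labels do not give the age of the mice, the dose or time of doxycycline, the element that drives the inducible receptor, the cell types that carry it, or whether each library came from a separate animal. The name leukemia rests on these labels alone. The T lineage genes below were read in each tumor, but normal thymocytes express such genes too, so they cannot check that name.

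Interleukin-7 is a growth factor that stromal cells of the thymus give to immature T cells. Its receptor pairs the alpha chain, encoded by Il7r, with the common gamma chain, encoded by Il2rg, and signals through the kinases JAK1 and JAK3 to the transcription factor STAT5. T-ALL is a cancer of T cell precursors, and its cells often carry active Notch1 or resemble a stage of thymocyte development.

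Levels are shares of a fixed total. The deposited transcripts-per-million values were summed over each gene symbol, the 37 mitochondrial genes and 72 satellite-like gene models were left out, and the sum over the 21860 nuclear protein-coding genes was set to 1000000 in each tumor. A gene was called above background where its level exceeded the 95th percentile of the 1451 olfactory and vomeronasal receptor genes, which belong to sensory neurons of the nose. That background was 11.6, 16.4, 7.59, 11.5, 4.78 and 6.18 in tumors 1 to 6. The estimated counts on protein-coding genes were 3654750, 3020537, 4608246, 3434721, 13346917 and 7082882, so low levels were read most precisely in tumors 5 and 6.

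The most abundant protein-coding model was not a known messenger RNA but a stretch of simple repeat, and it set the scale of the other genes. Gm11027 is a 198-base model at chr12:116275386-116275612 on the plus strand of GRCm38 (mm10), annotated as coding throughout, and 85.4% of it is uninterrupted GA or GAAA repeat. It took 40.3%, 16.9%, 24.0%, 10.8%, 0.682% and 0.156% of the level in tumors 1 to 6. Gm17571, 90 bases from chr9:13444034-13446753 on the minus strand, ranked 17 by mean level and is 55.6% TG repeat. Both transcript sequences, from GENCODE M21, are shown because reads from many loci can match them, with the repeat runs in capitals.
Gm11027: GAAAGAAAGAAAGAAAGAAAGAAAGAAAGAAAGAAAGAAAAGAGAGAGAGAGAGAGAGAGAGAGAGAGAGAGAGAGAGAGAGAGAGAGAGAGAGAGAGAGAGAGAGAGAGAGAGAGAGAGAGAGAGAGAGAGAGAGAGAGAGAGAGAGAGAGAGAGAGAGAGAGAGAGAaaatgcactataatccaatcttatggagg
Gm17571: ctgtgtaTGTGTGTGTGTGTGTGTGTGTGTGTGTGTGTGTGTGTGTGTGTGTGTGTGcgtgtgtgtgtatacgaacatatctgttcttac
Atp2b4, which ranked 8, a calcium pump of the cell membrane, was counted almost wholly on 1 transcript of 243 bases that is 58.4% repeat, so its level is not a measure of the pump.

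In all, 10 gene models consisted of at least 50% simple repeat among the 19737 genes (90.3%) whose leading transcript was found in the reference. Together they held 44.9%, 20.2%, 26.3%, 13.1%, 1.25% and 0.665% of the level in tumors 1 to 6. Leaving them out multiplied every other level by 1.82, 1.25, 1.36, 1.15, 1.01 and 1.01. Tumor 1 therefore read low for most genes on the scale used here, and a tumor is called highest or lowest below only with this shift checked. The same models took between 9.21% and 12.1% of the level of each control library, and between 13.7% and 49.1% of that of tumors 7, 8 and 9.

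**Figure D1:**
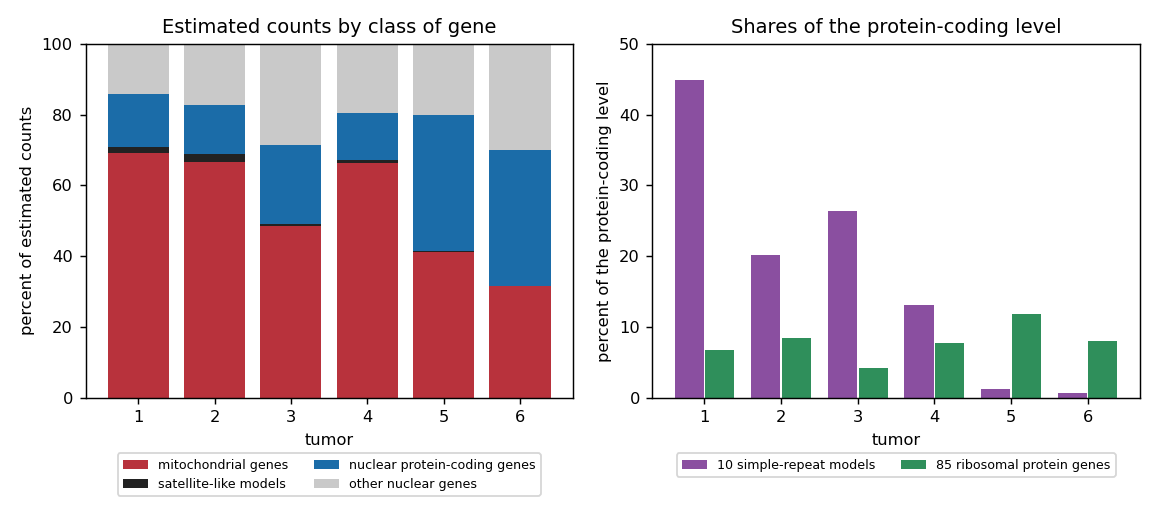
Left, percent of all estimated counts in each of tumors 1 to 6 that fell on mitochondrial genes, satellite-like models, nuclear protein-coding genes and other nuclear genes. Right, percent of the protein-coding level held by the 10 simple-repeat models and by 85 ribosomal protein genes. The repeat models range from 44.9% in tumor 1 to 0.665% in tumor 6.

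Apart from another repeat model and a histone gene, the remaining top ranks were held by translation and housekeeping genes. Eef1a1, the elongation factor that brings transfer RNA to the ribosome, ranked 2, with 13480, 14356, 9247, 19825, 24821 and 13993 in tumors 1 to 6. Tpt1, Ptma, Hnrnpa2b1, Hspa8, Serbp1 and Rbm39 were among the top 20, as were 6 ribosomal protein genes (Rpl13a, Rps24, Rpl21, Rpl23a, Rpl6 and Rpl26). Lars2, the mitochondrial leucyl-transfer RNA synthetase, ranked 4, with 4356, 14432, 14373, 13528, 1497 and 19176, and tumor 5 lay lowest. The Lars2 level was 151 to 156 in the control libraries and 217 to 3422 in the tumors outside these 6. Whether reads counted on Lars2 came from its messenger RNA was not tested, so its level is not read as expression of the synthetase. The 20 genes of highest mean level held 50.6%, 27.6%, 31.7%, 21.0%, 10.6% and 8.76% of the level, with a mean of 25.1%. Without the repeat models, the 20 highest of the rest held 10.4% on average.

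The 85 ribosomal protein genes took 6.74%, 8.49%, 4.17%, 7.67%, 11.8% and 8.03% of the level, and 82 of them were above background in all 6 tumors. Without the repeat models the share was 12.2%, 10.6%, 5.67%, 8.82%, 12% and 8.09%, so tumor 3 was lowest either way while tumor 1 moved from next to lowest to highest. Rps24, a small-subunit protein, was 1425 in tumor 3 and 3245 to 4442 in the other 5. Ribosomal protein genes took between 1.10% and 2.04% in each control library and between 0.471% and 0.749% in tumors 7, 8 and 9. All 19 translation factors listed, among them Pabpc1 and Eif4g2, were above background in all 6 tumors, and none had a wide spread.

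Over the whole table, 5843 of 21860 protein-coding genes (26.7%) were above background in all 6 tumors, and 10571 (48.4%) were above it in none. Counted by tumor, 6982, 7200, 8945, 8492, 9293 and 10087 of the 21860 were above background in tumors 1 to 6. Of 8830 genes with a mean level of at least 10, 1163 (13.2%) had a wide spread, meaning a standard deviation over the 6 tumors of at least 1 on the scale of log2(level + 1). The median spread of the 8830 genes was 0.64. These shares are the background for the counts by gene group below, and no group was tested against them, because the tumors were chosen by a value of the same libraries.

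The T cell genes were present in every tumor. Of 22 T cell identity genes, 19 were above background in all 6 and 4 (Cd2, Cd5, Cd6 and Gata3) had a wide spread. Thy1, a surface glycoprotein of T cells, was 825, 1213, 972, 1238, 1719 and 1291 in tumors 1 to 6, a spread of only 0.36. Ptprc, the leukocyte phosphatase CD45, was 313, 457, 671, 890, 799 and 896. Tcf7, a transcription factor of early T cell commitment, was 298, 419, 787, 759, 731 and 628. For Thy1, Ptprc and Tcf7 tumor 1 was lowest, but with the repeat models left out the lowest were tumor 6 for Thy1 and tumor 2 for Tcf7.

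The chains of the CD3 complex, which carries the signal of the T cell receptor, did not share 1 order. Cd3e was 452, 401, 264, 286, 227 and 1252, highest in tumor 6. Cd3g was 1126, 1328, 347, 595, 993 and 888, with tumor 3 lowest. Gata3, a T lineage transcription factor, was 73.8, 73.8, 221, 173, 31.8 and 496, highest in tumor 6 and lowest in tumor 5.

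The adhesion and co-receptor genes Cd2, Cd5 and Cd6 separated the tumors more. Cd5, which dampens T cell receptor signaling, was 15.7, 5.66, 86.2, 45.7, 1.45 and 3.93 in tumors 1 to 6, and only tumors 1, 3 and 4 were above background. Cd2 was 68.7, 83.5, 197, 247, 41.3 and 5.34, below background in tumor 6 alone. Cd6 was below background in tumor 5 alone, at 4.15. Tumors 3 and 4 held the 2 highest values of all 3 genes.

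Dividing-cell genes were present in each tumor and none had a wide spread. All 21 genes of G2 and mitosis and 20 of 22 S phase genes were above background in all 6. Mki67, a protein of dividing cells, was 282, 451, 563, 532, 1170 and 828, highest in tumor 5. The summed G2 and mitosis level was 1536, 2834, 3156, 2865, 5741 and 4621, and tumor 5 was highest under each of 5 scalings. Of 20 MYC-induced growth genes, 18 were above background in all 6 and 1 (Ppan, a ribosome assembly factor) had a wide spread. Myc itself was 79.0, 143, 220, 156, 68.2 and 173.

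Replication-dependent histone messages, which are made in S phase and mostly end without a poly(A) tail, were higher in tumor 6. Their summed level over 21 genes was 4319, 8897, 5605, 4921, 6351 and 20493, with tumor 6 highest under each of 5 scalings. Of the 20 histone genes with a mean level of at least 10, 10 had a wide spread, beside 13.2% of all such genes. Hist1h1e, a linker histone, was 691, 972, 1093, 1050, 1258 and 2833. The summed level of the S phase genes was 1426, 2649, 2427, 2308, 3234 and 3130, with tumor 6 close to tumor 5. Histone genes have near-identical copies among which kallisto divides reads, so single members such as Hist1h2ap (137, 0.0125, 122, 0.177, 16.1 and 506) are uncertain.

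**Figure D2:**
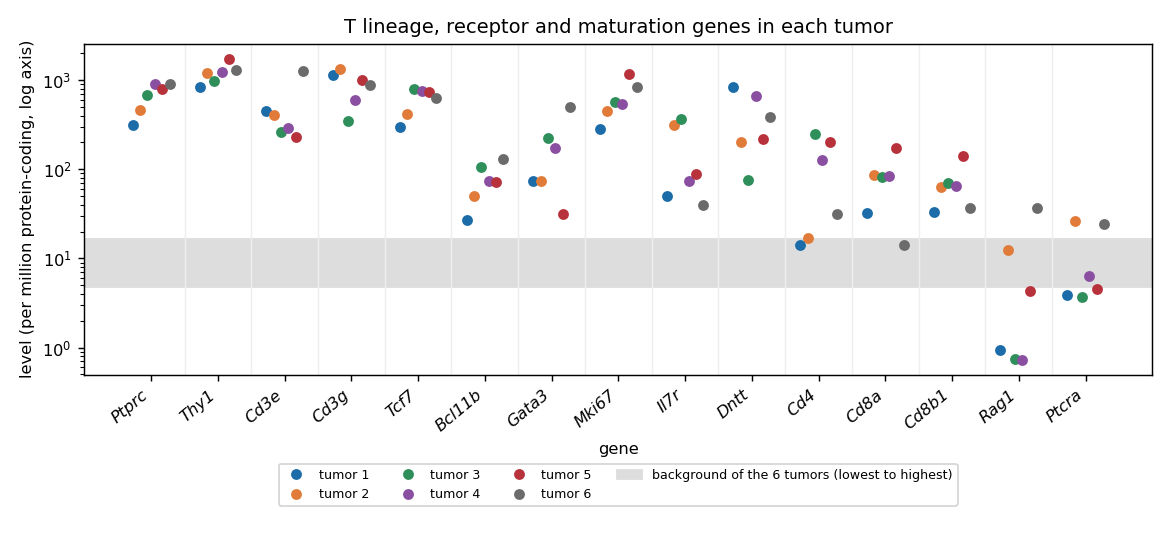
Level of 15 T lineage, receptor and maturation genes in tumors 1 to 6 (one point per tumor, logarithmic axis, no averaging). The grey band runs from the lowest to the highest background of the 6 tumors, 4.78 to 16.4. Thy1 varies little between tumors, while Il7r, Dntt, Cd4 and Rag1 vary widely.

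Il7r, the induced gene, at chr15:9505788-9530176, was above background in all 6 tumors but at unequal levels. It was 49.8, 310, 367, 74.4, 88.8 and 40.1 in tumors 1 to 6, from 680, 2364, 4151, 572, 2447 and 522 estimated counts. Tumors 2 and 3 were high and the other 4 lay between 40.1 and 88.8, so that the highest was 9.15 times the lowest. Without the repeat models the values were 90.4, 388, 498, 85.6, 89.9 and 40.4, with the same tumors high. On the same scale its level lay between 10.1 and 12.9 in the control libraries, under their background of 95.1 to 100, and between 8.43 and 22.9 in tumors 7, 8 and 9, under their background of 49.4 to 104. Transcripts of the inducible copy and of the mouse gene cannot be told apart in these values.

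The other parts of the receptor pathway varied less than Il7r. Of 15 interleukin-7 receptor and JAK-STAT genes, 11 were above background in all 6, and Il7r was the 1 with a wide spread. Il2rg, the common gamma chain, was 156, 168, 264, 286, 192 and 280. Jak1 was 167, 152, 194, 284, 270 and 225. Stat5b was 27.5, 60.2, 120, 101, 51.4 and 107, and Ptpn6, a phosphatase that restrains cytokine signaling, was 114, 176, 377, 201, 458 and 163. Il7 itself, the ligand, was below background in all 6, at 0.595 to 2.69.

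Of 18 genes that STAT5 is known to induce, 4 (Mcl1, Ccnd3, Myc and Xbp1) were above background in all 6, and 5 were above it in none, beside 26.7% and 48.4% of all protein-coding genes. Cish, a feedback inhibitor of cytokine receptors, was 2.58, 2.31, 0.148, 3.38, 0.158 and 2.31, below background in each tumor. Socs2, of the same inhibitor family, was 4.13 to 10.1 and above background in 1 tumor. Bcl2, the survival factor downstream of interleukin-7 in T cells, was 4.46 to 10.9 and above background only in tumor 6. Mcl1, another survival factor, was 22.7, 52.0, 43.0, 53.7, 71.2 and 95.4.

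Whether Il7r moved with 6 genes across the 6 tumors was tested by exact permutation over all 720 pairings, two-sided, with Benjamini-Hochberg adjustment over the 6 relations. The strongest relation was with Dntt, the template-free polymerase of immature lymphocytes, at 832, 199, 76.0, 665, 220 and 383. Pearson's r was -0.82 (exact permutation p = 0.0542, adjusted p = 0.325, n = 6) and Spearman's rho was -0.83 (exact permutation p = 0.0583, adjusted p = 0.175). Without tumors 2 and 3, the farthest from the median Il7r level, r fell to -0.38, so the relation rests on those tumors. The smallest p that 6 tumors allow is 0.00278.

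None of the other 5 relations passed adjustment either. Pearson's r was -0.57 for Pim1 (exact permutation p = 0.235, adjusted p = 0.483), -0.55 for Bcl2 (p = 0.242, adjusted p = 0.483) and -0.45 for Cish (p = 0.324, adjusted p = 0.485). It was 0.32 for Socs2 (exact permutation p = 0.547, adjusted p = 0.657) and -0.09 for Mki67 (p = 0.849, adjusted p = 0.849). Spearman's rho was -0.83 (exact permutation p = 0.0583, adjusted p = 0.175) for Pim1, -0.60 (p = 0.242, adjusted p = 0.363) for Bcl2, -0.71 (p = 0.136, adjusted p = 0.272) for Cish, -0.03 (p = 1) for Socs2 and 0.03 (p = 1) for Mki67. Without tumors 2 and 3, r was -0.97, -0.47, -0.56, -0.22 and 0.37 for Pim1, Bcl2, Cish, Socs2 and Mki67. Cish lay below background in each tumor, Socs2 and Bcl2 in 5 of 6 and Pim1 in 4 of 6, so their relations were read at levels of little precision.

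Thymocytes pass from a stage without CD4 and CD8 to one with both, then keep 1 of them. Of 16 genes of the double-positive stage, 11 were above background in all 6 tumors, and 5 had a wide spread. Cd4 was 14.2, 16.7, 248, 127, 200 and 31.3 in tumors 1 to 6, high in tumors 3, 4 and 5. Cd8a was 31.9, 86.7, 82.4, 84.5, 171 and 14.1, and Cd8b1 was 32.8, 62.8, 70.3, 65.5, 141 and 36.7, both highest in tumor 5. Tumor 5 thus held Cd4 and Cd8a at similar levels, tumor 3 held more Cd4 than Cd8a, and tumors 1 and 2 held little Cd4.

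The recombination genes were low except in tumor 6. Rag1, which cuts antigen receptor genes, was 0.931, 12.4, 0.751, 0.735, 4.31 and 37.1, above background in tumor 6 alone, and Rag2 was likewise above background only there, at 13.8. Ptcra, the surrogate alpha chain of immature cells, was 26.5 in tumor 2 and 24.3 in tumor 6 and 3.71 to 6.37 in the other 4. Satb1 and Themis, regulators of the double-positive stage, were above background in all 6, at 229 to 1157 and 94.0 to 432. Among 16 early progenitor genes, 1 (Cd34) was above background in all 6 and 9 in none, beside 26.7% and 48.4% of all protein-coding genes. Tumor 2 held 5 of the 16 above background and tumor 4 held 4, beside 7200 and 8492 of all 21860 genes. Kit reached 21.2 and Il2ra 59.5 in tumor 2.

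The summed level of mature thymocyte genes was highest in tumor 4, and H2-K1, Foxp1 and H2-D1 were among its larger members there. H2-K1, a class I molecule that presents peptides, at chr17:33996017-34000347, was 41.7, 31.6, 23.2, 488, 31.1 and 39.8, so that only tumor 4 stood apart. H2-D1, the other classical class I gene listed, was 32.5, 45.4, 110, 359, 184 and 43.5, which tumors 3 and 5 shared in part. Foxp1, a transcription factor of the same list, was 75.2, 120, 248, 427, 113 and 259. The summed level of the 18 mature genes was 555, 790, 915, 2213, 593 and 616, with tumor 4 highest under each of 5 scalings. Without tumor 4 the spread of H2-K1 fell from 1.60 to 0.33. Ccr7 and S1pr1, which guide mature cells out of the thymus, were below background in all 6.

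Tumor 4 also held the highest levels of several interferon-induced and cytotoxic genes. Ccl5, a chemokine of activated T and NK cells, was 17.3, 23.2, 11.5, 175, 2.75 and 6.03. The summed level of the 18 interferon-induced genes was 345, 521, 378, 1027, 364 and 623. Tumor 6 took the place of tumor 4 at the top of that sum when levels were rescaled over all nuclear genes. Mx1, an antiviral gene, had another order, at 6.11, 7.19, 20.8, 10.7, 61.6 and 145. Hspa1b, a stress-induced chaperone, was 31.5, 12.1, 34.0, 344, 1.17 and 3.38, and was again highest in tumor 4.

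Among cytotoxic genes, Gzma alone was above background in every tumor. This granule protease was 1202, 931, 189, 624, 616 and 96.3, while Gzmb, Gzmc, Gzmk and Prf1 were below background in each tumor. Of the 16 cytotoxic genes, 1 was above background in all 6 and 9 in none, beside 26.7% and 48.4% of all protein-coding genes. Tumor 4 held 7 of the 16 above background, and each other tumor held 1 or 2. The inhibitory receptor and regulatory T cell genes Tox and Ikzf2 were above background in all 6, at 41.6 to 219 and 30.6 to 310, while Foxp3, which defines regulatory T cells, was below background in each tumor.

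**Figure D3:**
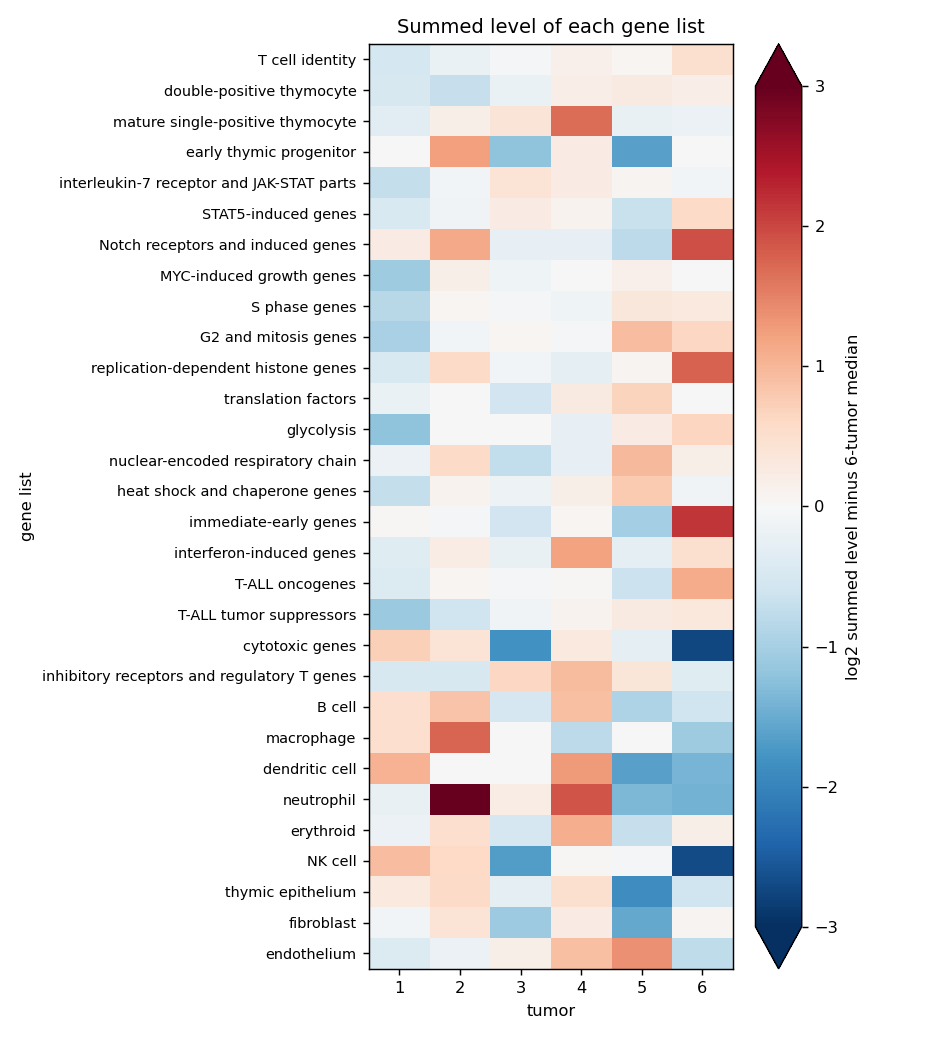
Log2 of the summed level of each gene list other than the sex-linked one in tumors 1 to 6, minus the median of the 6 tumors for that list (red higher, blue lower, colors limited to 3 in either direction). The neutrophil list in tumor 2, the mature single-positive list in tumor 4 and the Notch, histone and immediate-early lists in tumor 6 are among the reddest squares, and tumor 1 is blue in most growth lists.

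Several Notch genes differed widely between the tumors. Notch receptors cut at the membrane release a fragment that switches on targets such as Hes1 and Dtx1, and this signal commits precursors to the T lineage. Of 17 genes listed, 9 had a mean level of at least 10 and 7 of these had a wide spread, beside 13.2% of all such genes. Notch3, Igf1r and Ptcra were above background in 2 tumors, and Hes1 and Il2ra in 3. Such genes reach that mean largely through their high tumors, so a wide spread is partly built in. Notch1, at chr2:26457903-26516663, was 214, 452, 59.4, 37.0, 83.3 and 1074 in tumors 1 to 6. Hes1, at chr16:30064384-30067796, was 60.3, 42.2, 0, 0.306, 4.25 and 97.3, so that tumors 1, 2 and 6 were above background and tumors 3, 4 and 5 were not. Dtx1 was 35.8, 117, 2.90, 11.6, 0.724 and 54.4.

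The zero for Hes1 in tumor 3 allows a level of up to 1.47 at 3 counts, which covers counting error only. Tumors 1, 2 and 6 held the 3 highest levels of Notch1, Notch3, Hes1, Dtx1 and Igf1r, which are 5 of the 7 wide genes of the list, with or without the repeat models. Ptcra and Il2ra, the other two, had their 3 highest values in tumors 2, 4 and 6. Tumors 1, 2 and 6 held the 3 highest levels in 9.37% of all 1163 wide genes, and in 14.3% of the 1374 wide genes without the repeat models. These counts were made after the values were seen. Rbpj, the DNA-binding partner of Notch, varied little, at 45.9 to 104.

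**Figure D4:**
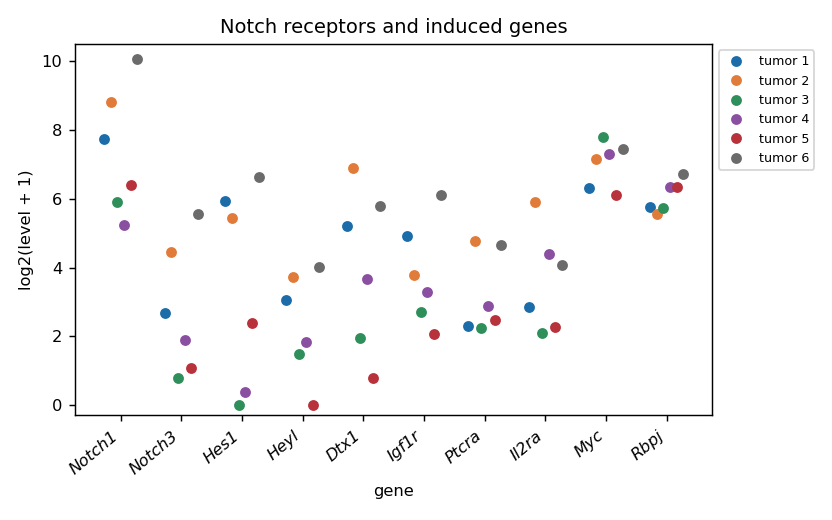
Log2(level + 1) of 10 Notch receptors and induced genes in tumors 1 to 6, with one point per tumor and no averaging. Tumors 1, 2 and 6 are above the others for Notch1, Notch3, Hes1, Heyl, Dtx1 and Igf1r.

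Of 24 tumor suppressors of T-ALL listed, 21 were above background in all 6 tumors, beside 26.7% of all protein-coding genes. Cdkn2a, often deleted in T-ALL, was 3.97, 7.44, 2.37, 5.22, 6.83 and 5.89, above background only in tumor 5. Most transcription factors that are switched on in subtypes of human T-ALL were below background, and 11 of the 21 T-ALL oncogenes listed were above it in no tumor, a share near the 48.4% over all genes. Tal1 was 0 to 3.09, Tlx1 was 0 to 1.90 and Tlx3 was 0 to 2.04, below background in each tumor. Lmo2 was above background in tumor 1 alone, at 21.3, with 2.03 to 6.38 in the others. The 5 oncogenes above background in all 6 were Myc, Notch1, Bcl11b, Myb and Ccnd3, which normal thymocytes also use.

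Immediate-early genes, which cells switch on within minutes of a stimulus, were highest in tumor 6. Jun was 148, 32.5, 1.07, 28.8, 10.8 and 586, and Fos was 17.7, 32.4, 2.65, 35.4, 4.65 and 214. The summed level of the 18 genes was 364, 343, 238, 367, 174 and 1559, with tumor 6 highest under each of 5 scalings. Of the 14 members with a mean level of at least 10, 10 had a wide spread, beside 13.2% of all such genes. Only 3 of the 18 were above background in all 6, beside 26.7% of all protein-coding genes.

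Markers of other cells were mostly at or below background, with exceptions by tumor. No neutrophil gene was above background in all 6, yet tumor 2 held 8 of the 12 above background. In tumor 2, 7200 of all 21860 protein-coding genes were above it. S100a8, a calcium-binding protein of neutrophils, was 4.26, 848, 15.3, 65.7, 7.69 and 1.47, and its partner S100a9 was 3.34, 934, 19.5, 57.2, 6.46 and 3.40. The summed neutrophil level was 50.1, 2272, 67.5, 213, 22.9 and 21.7. Without tumor 2 the spreads of S100a8 and S100a9 fell from 3.05 and 2.98 to 1.80 and 1.62. Ly6g, Elane and Prtn3 were below background in tumor 2 as in the others.

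Lyz2, the lysozyme of macrophages and neutrophils, was 68.9, 298, 91.0, 42.7, 104 and 22.8, and was the 1 macrophage gene of 12 above background in all 6. Saa3, an acute-phase protein outside the lists, was 13.8, 1163, 16.2, 10.3, 340 and 19.1, so that tumors 2 and 5 stood apart. The class II genes H2-Aa, H2-Ab1 and H2-Eb1 were above background in all 6, H2-Ab1 at 114, 43.4, 48.3, 146, 10.3 and 26.1. The other 9 dendritic cell genes were not above background in more than 1 tumor each. No B cell gene, erythroid gene or thymic epithelial gene was above background in all 6, and Cd79a, Epcam and Foxn1 were below it in each tumor.

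Pecam1, an adhesion molecule of endothelium that also occurs on leukocytes, was 425, 470, 685, 1080, 1599 and 319. Cdh5 and Kdr, which define endothelium, were at or below 4.30 in each tumor, below background. Egfl7, of the same list, was above background in 5 of 6 tumors, at 8.60 to 28.4 over the 6. Of the 12 endothelial genes, 1 was above background in all 6 and 6 in none, beside 26.7% and 48.4% of all protein-coding genes. Tumors 4 and 6 each held 4 of the 12 above background, beside 8492 and 10087 of all 21860 genes. Among NK cell genes, Gzma was the 1 above background in any tumor, and Ncr1 and Klrb1c were below it in all 6. Fibroblast genes Col1a1, Dcn and Lum were below background in most tumors, while Col1a2 was above it in all 6, at 11.0 to 164, and Pdgfrb was 60.5, 37.6, 2.77, 3.54, 0.484 and 108. Of 12 fibroblast genes, 2 were above background in all 6 and 5 in none, beside the same 26.7% and 48.4%. Tumor 2 held 6 of the 12 above background, beside 7200 of all 21860 genes, and each other tumor held 2 to 4. In bulk RNA, fewer cells of a type and less RNA per cell cannot be told apart, and the part of other cells in the levels above was not tested.

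**Figure D5:**
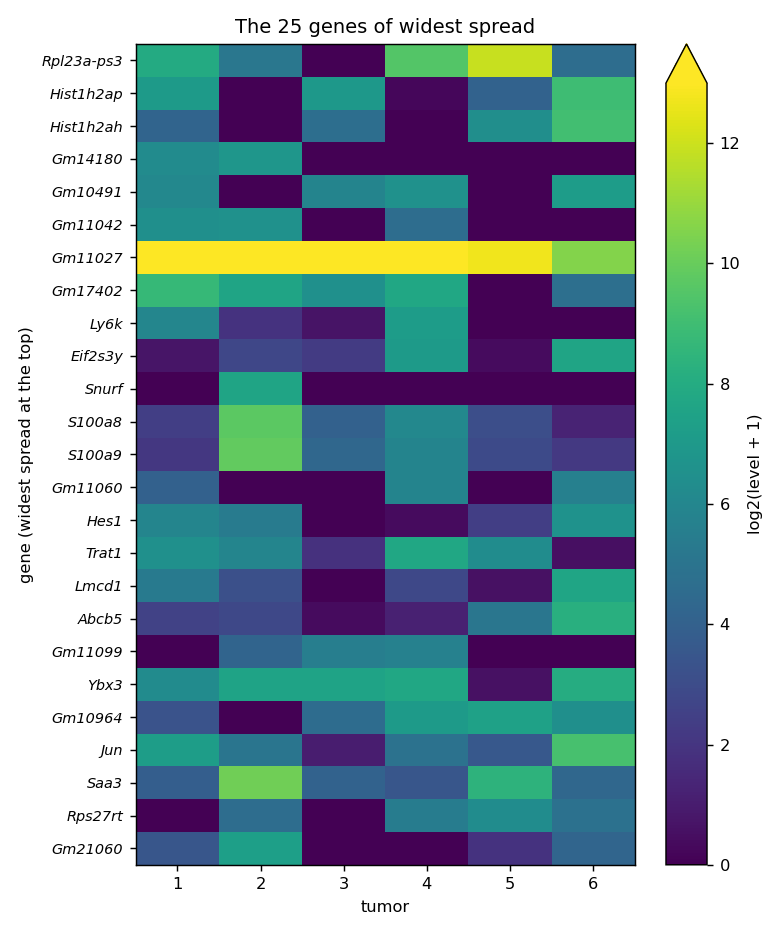
Log2(level + 1) of the 25 genes of widest spread in tumors 1 to 6, with the widest at the top and colors limited to 13 at the bright end, which only Gm11027 exceeds. Many rows are bright in 1 or 2 tumors only, such as Snurf, S100a8 and S100a9 in tumor 2, and Ybx3 is dark in tumor 5 alone.

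The 25 genes of widest spread mixed repeat, pseudogene and unnamed models with known genes. The widest, Rpl23a-ps3, at 247, 34.7, 0, 746, 3871 and 24.2, is named as a pseudogene copy of Rpl23a, and Snurf, at 0, 190, 0, 0, 0 and 0, shares its transcripts with Snrpn, so both are uncertain. Ybx3, a Y-box RNA-binding protein at chr6:131364855-131388476, was 75.8, 187, 184, 215, 0.496 and 267, with 3 estimated counts in tumor 5 against at least 399 in the others. Its expressed neighbour Styk1, whose start lies 34.9 kb away, was above background in all 6, at 49.2 in tumor 5, its lowest value, and 63.7 to 138 in the others. Without tumor 5 the spread of Ybx3 fell from 2.87 to 0.69.

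Other named genes of this set were high in 1 or more tumors and near 0 in others. Abcb5, a membrane transporter, was 4.92, 6.03, 0.290, 1.26, 33.7 and 298, and Lmcd1, a LIM-domain protein, was 40.1, 8.17, 0, 6.11, 0.495 and 196, both highest in tumor 6. Trat1, an adaptor of the T cell receptor, was 90.5, 60.3, 2.62, 211, 80.1 and 0.454, below background in tumors 3 and 6. Ly6k, known from testis and some cancers, was 60.9, 2.70, 0.608, 144, 0 and 0, high in tumors 1 and 4. Of the 1163 wide genes, 335 (28.8%) were above background in all 6 tumors and 828 in some of them.

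Tumors 5 and 6 lay apart most often. For each of the 1163 wide genes, the tumor farthest from the median was tumor 5 in 409 (308 of them low), tumor 6 in 292 (196 high), tumor 1 in 158 (151 low), tumor 3 in 123, tumor 2 in 93 and tumor 4 in 88. Without the repeat models the 151 low genes of tumor 1 became 40 of 1374, while tumor 5 was farthest in 634, 581 of them low. Tumor 5 was also the most deeply read tumor and had the lowest background, and the part of depth in this count was not tested.

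A stricter count, made after the values were seen, kept genes at least 4-fold higher or lower in 1 tumor than in every other on both scales, with at least 100 estimated counts. It gave 43 high and 6 low genes in tumor 6, 24 and 0 in tumor 2, 12 and 10 in tumor 5, 11 and 10 in tumor 3, 12 and 1 in tumor 4, and 1 and 1 in tumor 1. Tumor 6 alone held high Txnip, a thioredoxin-binding protein, at 1201 against at most 152, and low Cd2. Tumor 5 alone held high Sim2, a developmental transcription factor, at 135 against at most 3.91. Tumor 4 alone held low Ddx3x, an X-linked RNA helicase, at 29.3 against at least 351. Tumor 3 alone held high Ncam1, an adhesion molecule of neurons and NK cells, at 63.8 against at most 9.27.

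Across the 8830 genes, tumors 1 and 2 were most alike (Pearson's r of log2(level + 1) = 0.88), followed by tumors 3 and 4 (0.86) and tumors 1 and 4 (0.85). Tumors 1 and 5 were least alike (0.75). These correlations are across genes of library pairs, which are not independent replicates, and describe likeness only.

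Sex-linked transcripts did not follow 1 pattern. Xist, the RNA that silences an X chromosome in females and is not in the protein-coding sum, was 284 and 321 in tumors 1 and 2 and 0.867 to 1.41 in tumors 3 to 6. The Y-linked gene Ddx3y was 62.6 in tumor 3 and 72.8 in tumor 4 and 0.400 to 5.12 in the others. The Y-linked gene Eif2s3y was 134 in tumor 4 and 192 in tumor 6 and 0.306 to 5.81 in the others, so that tumors 3 and 6 each held 1 of these 2 genes. Tumor 5 held neither Xist nor these Y-linked genes above background. Kdm5d, a Y-linked demethylase, was above background in all 6, at 13.7, 21.5, 39.4, 61.7, 7.14 and 62.0. Uty, also Y-linked, was above background in all 6 too, at 151, 141, 120, 134, 10.1 and 116.

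The steadiest genes with a mean level of at least 50 were Myl12b, a myosin light chain, at 96.4 to 121, Pin4, Tomm20, Cenpc1 and Map4, with spreads of 0.15 to 0.17. This steadiness belonged to the scale, since the spread of Myl12b was 0.37 without the repeat models and 0.59 with levels rescaled over all nuclear genes.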

How the data were processed

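Polyadenylated RNA of 12 mouse thymus libraries was extracted with Trizol and read in pairs on an Illumina instrument, per the labels. FastQC, kallisto and the build mm10 are named in the submitters' processing notes, with versions not given in the sources used here. The authors deposited, per the file headers, kallisto estimated counts, effective lengths and TPM values for 128622 transcripts of 51734 symbols in each library. kallisto divides reads among similar transcripts, so paralogs, pseudogenes and overlapping genes are uncertain, and no strand setting is given.

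TPM values were summed per symbol, rescaled and log-transformed with a pseudocount of 1, as the report describes, in Python 3.11.15 with numpy 2.4.6, pandas 2.3.3 and scipy 1.17.1. Drawing used matplotlib 3.10.9. For the scaling alternative, estimated counts were rounded to whole numbers and TMM factors taken with edgeR 4.0.16 in R 4.3.3. Totals in tumors 1 to 6 ran from 18431516 to 34769946 estimated counts. Coordinates and transcripts came from GENCODE M21 (GRCm38). A simple repeat was a run of at least 12 bases of a unit of up to 4 bases. Alternatives were other scalings, pseudocounts, filters, backgrounds and each tumor left out. Dropping repeat models, requiring 100 counts and requiring background were chosen after seeing the data. The calculations were tested on simulated data.

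No group was compared, since the 6 tumors were chosen by a measured share, and nothing is known of separate animals, so spreads and p-values may be partly technical. The members, the 31 gene lists (473 entries, 470 matched) and the rules were chosen with earlier results of these data known. The rule named 137 genes: 5 markers, the 20 highest by mean level, the 25 of widest spread, the 5 steadiest with a mean of at least 50, in each list the 2 highest and the widest, and 27 genes of T cell leukemia. Other list members, a neighbour of Ybx3 and single-tumor genes were named after their values were seen. Some named genes and 1 sequence are not reported here.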

Additional observations from a re-analysis of the deposited data

Results flagged for a closer look

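Of 117 values examined over the 6 tumors (single named genes, summed lists and measures of the libraries), 8 had 1 tumor far from the other 5. Chance alone flags about 1 in 20 such groups where they are not chosen by their spread. Snurf and Ybx3 were named for their wide spread and Cenpc1 for its small spread, so that rate is no guide for them. Among genes, Rps24 was low in tumor 3 (1425), Snurf was high in tumor 2 (189.5), Ybx3 was low in tumor 5 (0.496) and Cenpc1 was low in tumor 1 (145.0). Among summed lists, the mature single-positive thymocyte genes were high in tumor 4 (2213) and the MYC-induced growth genes were low in tumor 1 (3552). The immediate-early genes were high in tumor 6 (1559) and the sex-linked genes were low in tumor 5 (17.9). In tumors 1 and 2 the sex-linked sum, 167 and 173, was mostly Uty, at 151 and 141. With the repeat models left out, Cenpc1 turned from lowest to highest in tumor 1 (263 against 186 to 250), so its flag rests on the scale. On that scale the MYC-induced sum of tumor 1 was 6449, against 7458 to 10599 in the others. It had been 3552, against 6862 to 8459, so this flag too leans on the scale. With levels rescaled over all nuclear genes, tumor 4 was the lowest for that sum.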

How the results depend on the processing

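The number of wide genes, 1163, changed with the processing. It was 347 with levels rescaled over all nuclear genes, 652 with a pseudocount of 5, 1837 with a mean level of at least 5, 325 with at least 50 and 3719 with no filter on low values. It was 1374 without the repeat models, 996 with at least 100 counts in a tumor and 1056 to 1343 with any 1 tumor left out. The mean share of the 20 most abundant genes was 2.90% over all nuclear genes. Genes above background in all 6 tumors numbered 1901 with the 99th percentile of receptor genes and 11175 with a fixed level of 1. Il7r against Dntt passed the threshold only with satellite-like models kept (r = -0.93, adjusted p = 0.0417 by exact permutation). Without the repeat models its r was -0.60 (adjusted p = 0.652 by exact permutation). On that scale r was -0.37 for Pim1, -0.40 for Bcl2 and -0.33 for Cish, and 0.43 for Socs2 and -0.23 for Mki67. Over the 72 alternatives of the 6 relations adjusted p by exact permutation ran from 0.0417 to 0.958. The sign of r changed for Socs2 over all nuclear genes (-0.094) and for Mki67 without tumor 2 or 6, within -0.58 to 0.12 with any 1 tumor left out. Leaving out the repeat models raised the median gene by 0.86 (log2) in tumor 1 and 0.01 in tumor 6. The cause of these changes was not tested. No paired analysis was possible because no test compares groups: the 6 tumors are of 1 group and their numbers only name them.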
